A study of Mus musculus with 14 samples.

Results

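The comparison described here set primary mouse hepatocytes kept for 3 weeks in the condition named LBDXL against Yap-/- hepatocytes kept for 3 weeks in the condition named BM. It was chosen by group label and took 4 of the 14 RNA-seq libraries of the study: LBDXL 3W 1 and 2, and BM 3W Yap-/- 1 and 2. The labels give strain C57BL/6 and liver as the source for all of them and do not spell out what LBDXL or BM contain. LBDXL 3W cells carry no stated mutation, so the groups differ in culture condition and in Yap genotype at once. A further 6 libraries served as side references: BM 3W (no stated mutation, BM for 3 weeks), freshly isolated Yap-/- hepatocytes (FH Yap-/-) and freshly isolated hepatocytes with no stated mutation (FH), with 2 libraries each. The study addressed whether hepatocyte functions are kept in culture when tension-driven activation of YAP is inhibited. The labels do not say how or in which cells Yap was deleted, nor whether the replicate libraries came from separate animals. The p-values below thus measure the spread between libraries, which may be technical in some groups. The LBDXL 3W libraries differed in Y-linked transcripts (values below), so they were not technical replicates of the same sample.

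YAP, encoded by Yap1, is a transcriptional co-activator held in the cytoplasm by the Hippo kinases. When cells spread on a stiff surface, YAP enters the nucleus and, with TEAD factors, drives genes such as Ctgf, Cyr61 and Ankrd1. Hepatocytes placed in culture commonly lose metabolic functions and gain cytoskeletal, matrix and progenitor features. Deletion of Yap removes the co-activator itself, whereas a culture condition can act on many pathways in a cell that still has it.

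The LBDXL 3W libraries held 20431393 and 18905461 counts and the BM 3W Yap-/- libraries 20353562 and 19244825. Levels below are TMM-scaled CPM, read counts brought to a common library size, and a gene was called higher or lower where its Benjamini-Hochberg adjusted p in edgeR (quasi-likelihood F-test, 14100 genes) was under 0.05. The LBDXL 3W libraries differed from each other more than the BM 3W Yap-/- libraries did. The chi-square per degree of freedom was 235.2 in LBDXL 3W and 68 in BM 3W Yap-/-, against 5.486 in FH and 4.039 in FH Yap-/-. In the BM 3W reference it was 152.3. The edgeR fit shared its estimate of the spread of each gene over all 7 groups. The p-values for LBDXL 3W thus rest in part on groups whose libraries were far more alike. The LBDXL 3W libraries also differed in kind. LBDXL 3W 1 held 0 counts of the Y-linked genes Ddx3y, Eif2s3y, Kdm5d and Uty, while LBDXL 3W 2 had Ddx3y at 102.9 CPM and BM 3W Yap-/- had it at 71.3 and 66.7 CPM. Both BM 3W and both FH libraries also expressed these genes, and the FH Yap-/- libraries held at most 1 count of any of them. The labels give no sex. Hepatocyte markers were abundant in both groups: the summed level of the 12 markers was 250475 and 192361 CPM in LBDXL 3W and 174380 and 165170 CPM in BM 3W Yap-/-. 

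LBDXL 3W and BM 3W Yap-/- cells differed in most macrophage genes tested and in a minority of contractile, matrix, bile acid, glucose and drug-metabolism genes. Genes called as changed from BM 3W by LBDXL and not by Yap loss numbered 422 (2.99% of those tested). The reverse held for 114 (0.809%). Of 14100 genes tested, 978 (6.94%) were called, of which 368 (2.61%) were higher and 610 (4.33%) lower in LBDXL 3W. The median log2 fold change over all genes was -0.0087. At an unadjusted p under 0.05, 3401 genes passed. Under total count scaling the median moved by -0.18 and the split became 211 higher and 736 lower. The count depended on single libraries: it was 1823 without LBDXL 3W 1, 393 without LBDXL 3W 2, 453 without BM 3W Yap-/- 1 and 209 without BM 3W Yap-/- 2. A fit of the 4 libraries alone called 169 genes. No called gene took the opposite sign in any of the 14 alternatives that tested it, but fewer stayed called: of the 978, 770 without LBDXL 3W 1, 321 without LBDXL 3W 2, 370 without BM 3W Yap-/- 1, 208 without BM 3W Yap-/- 2 and 151 in the fit of the 4 libraries alone. Of 124 called genes among the 202 named by rule, 25 stayed called under every alternative that tested them: Yap1, Arg1, Klb, Arg2, Plet1, Mfsd4a, Acta2, Tagln, Actn3, Cldn6, Il1rn, G6pdx, Kif1a, Crispld2, Pilra, Pilrb1, Pilrb2, Csf1r, Adgre1, Vsig4, Marco, Ctss, C1qa, C1qb and C1qc.

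**Figure D1:**
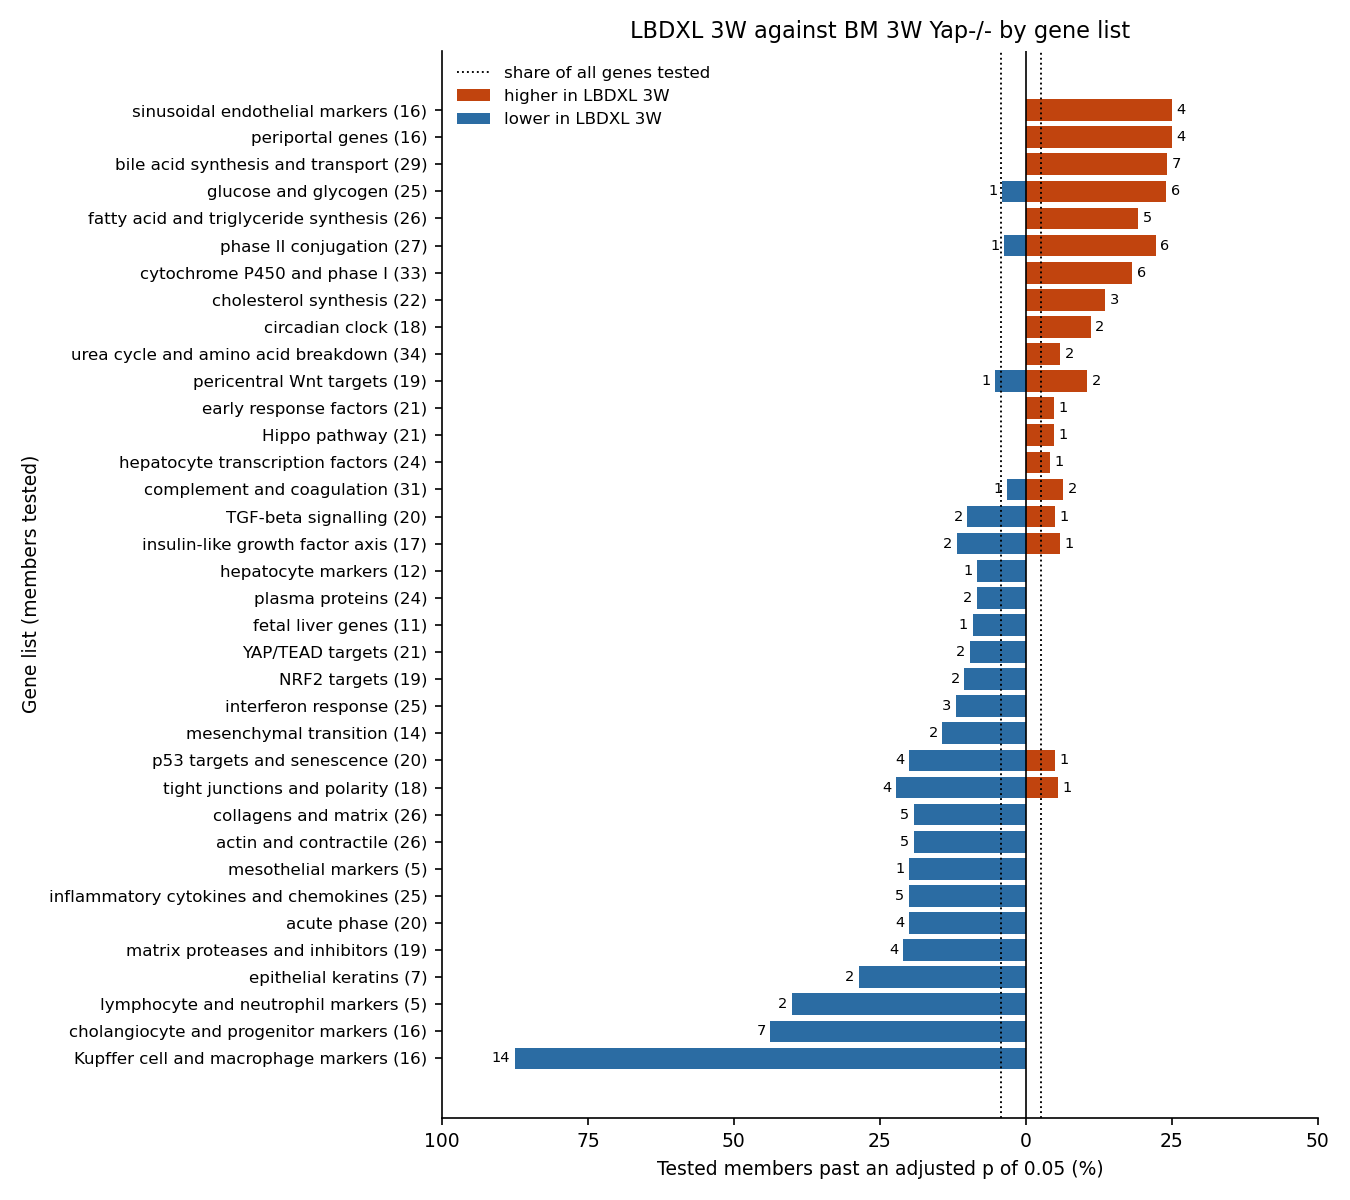
Share of the tested members of each gene list that was higher (right, red) or lower (left, blue) in LBDXL 3W than in BM 3W Yap-/-, in percent, with the number of members beside each bar and the number tested in brackets. Lists with no called member are left out. Dotted lines mark the share among all genes tested, 2.61% higher and 4.33% lower, and the macrophage list reaches furthest, with 14 of 16 members lower.

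The targeted gene separated the groups. Yap1 (chr9:7931999-8004638, GRCm38.p6) was at 97.7 and 96.3 CPM in LBDXL 3W and at 6.66 and 7.75 CPM in BM 3W Yap-/-, a log2 fold change of 3.75 ± 0.21 (SE, adjusted p = 2.43e-05, edgeR). BM 3W cells had 80.2 and 95.5 CPM and FH cells 87.6 and 97.6 CPM, so the Yap1 level of LBDXL 3W lay near those of the groups with no stated mutation. The sources used here do not give the deleted exons, and counts over the whole gene include any that remain. Wwtr1, which encodes the YAP paralog TAZ, was at 69.3 and 62.5 CPM in LBDXL 3W and at 49.6 and 33.4 CPM in BM 3W Yap-/-, which did not pass (adjusted p = 0.194, edgeR). Of 21 tested Hippo pathway genes, Yap1 was higher and the other 20 did not pass.

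YAP/TEAD target genes were lower than in BM 3W in both conditions for most members, and 2 differed between the conditions. Of 21 tested targets, 0 were higher and 2 (Axl and Ptpn14) were lower in LBDXL 3W, where 4.33% of all genes were lower. The other 19 did not pass, and the median log2 fold change was -0.80. Axl, a receptor tyrosine kinase, was at 6.61 and 2.60 CPM in LBDXL 3W against 32.5 and 30.8 CPM in BM 3W Yap-/- (log2 fold change -2.77 ± 0.40, adjusted p = 0.00356, edgeR). In BM 3W it stood at 252.6 and 200.6 CPM. Ptpn14, a phosphatase that binds YAP, was at 11.9 and 1.99 CPM in LBDXL 3W and at 45.6 and 37.2 CPM in BM 3W Yap-/-. The groups did not overlap for either gene. Ctgf, a matricellular protein, had 90.0 and 18.7 CPM in LBDXL 3W against 133.4 and 150.8 CPM in BM 3W Yap-/- (adjusted p = 0.174, edgeR). Cyr61, a related secreted protein, had 84.7 and 9.73 CPM in LBDXL 3W, either side of the 68.3 and 66.9 CPM of BM 3W Yap-/-. Both genes were several-fold higher in LBDXL 3W 1 than in LBDXL 3W 2, and the number of targets lower was 9 without LBDXL 3W 1 and 1 without LBDXL 3W 2, without BM 3W Yap-/- 1 or without BM 3W Yap-/- 2. A fit of the 4 libraries alone called 0 of 21 targets. Against BM 3W, 18 targets fell in LBDXL 3W, where 23.7% of all genes fell, and 14 in BM 3W Yap-/-, where 16.6% of all genes fell. These comparisons share the BM 3W libraries.

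TEAD factors bind the bases GGAATG, and the windows of 250 bases before the start of the YAP/TEAD target and actin genes that were lower in LBDXL 3W were searched for them. Of 7 such genes, 6 had a RefSeq promoter entry (GRCm38.p6) and 4 of the 6 held GGAATG on either strand, as did 12.6% of all 32851 promoter windows. The 4 windows with a match are shown, and those of Actg1 and Actn1 held none. Axl and Ptpn14 come from a list of known YAP/TEAD targets, so these shares cannot show an enrichment. Capitals mark GGAATG or its reverse complement. Axl lies at chr7:25788734-25788983 (minus strand), Ptpn14 at chr1:189728018-189728267 (plus strand), Acta2 at chr19:34255374-34255623 (minus strand) and Pfn1 at chr11:70654651-70654900 (minus strand). A match describes these letters and does not show binding.
Axl: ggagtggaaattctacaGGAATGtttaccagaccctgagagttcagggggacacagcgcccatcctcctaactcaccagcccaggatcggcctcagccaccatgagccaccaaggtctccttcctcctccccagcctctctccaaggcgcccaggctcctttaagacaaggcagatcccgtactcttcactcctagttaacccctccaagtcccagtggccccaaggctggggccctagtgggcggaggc
Ptpn14: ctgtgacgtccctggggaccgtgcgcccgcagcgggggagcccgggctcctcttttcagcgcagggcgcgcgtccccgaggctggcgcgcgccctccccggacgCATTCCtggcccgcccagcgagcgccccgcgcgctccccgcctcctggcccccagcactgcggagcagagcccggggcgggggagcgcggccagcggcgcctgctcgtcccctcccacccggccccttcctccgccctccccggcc
Acta2: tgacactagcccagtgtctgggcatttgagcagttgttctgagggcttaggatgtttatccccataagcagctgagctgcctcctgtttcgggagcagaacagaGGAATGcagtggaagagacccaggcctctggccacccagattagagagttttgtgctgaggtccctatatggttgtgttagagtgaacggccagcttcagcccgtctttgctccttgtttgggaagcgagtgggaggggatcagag
Pfn1: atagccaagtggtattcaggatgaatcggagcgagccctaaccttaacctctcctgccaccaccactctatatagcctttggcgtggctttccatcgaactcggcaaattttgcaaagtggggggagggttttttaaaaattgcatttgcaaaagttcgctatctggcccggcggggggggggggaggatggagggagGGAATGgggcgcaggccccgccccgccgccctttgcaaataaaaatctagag

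Contractile and matrix genes that passed were all lower in LBDXL 3W. Of 26 actin and contractile genes, 0 were higher, 5 were lower and 21 did not pass (median log2 fold change -0.89). Over all genes tested, 4.33% were lower. Acta2, smooth muscle actin, had 15.2 and 9.06 CPM in LBDXL 3W against 105.3 and 85.6 CPM in BM 3W Yap-/- (log2 fold change -2.97 ± 0.50, adjusted p = 0.00789, edgeR), and 816.4 and 626.4 CPM in BM 3W. FH cells had 0 and 0.237 CPM. Tagln, an actin-binding protein, had 19.98 and 14.6 CPM in LBDXL 3W and 67.2 and 71.9 CPM in BM 3W Yap-/- (log2 fold change -2.01 ± 0.25). Both genes separated the groups without overlap, with LBDXL 3W nearer to FH. Actg1, cytoplasmic actin, was at 367.1 and 243.7 CPM in LBDXL 3W and at 821.7 and 863.0 CPM in BM 3W Yap-/-, close in BM 3W Yap-/- to the 752.4 and 1014 CPM of BM 3W. Pfn1, which feeds actin monomers into filaments, was at 141.4 and 142.4 CPM in LBDXL 3W and at 246.1 and 288.8 CPM in BM 3W Yap-/-. The number of actin genes lower was 15 without LBDXL 3W 1, and 2 when any of the other 3 libraries was left out.

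Among 26 collagen and matrix genes, 5 were lower and 0 higher in LBDXL 3W (median log2 fold change -1.28). Col4a2, a basement membrane collagen, had 66.9 and 23.1 CPM in LBDXL 3W and 240.2 and 190.0 CPM in BM 3W Yap-/-. Its partner Col4a1 had 132.5 and 40.6 CPM in LBDXL 3W and 409.7 and 326.8 CPM in BM 3W Yap-/-. Fbn1, which builds microfibrils, had 7.45 and 2.36 CPM in LBDXL 3W and 28.2 and 17.7 CPM in BM 3W Yap-/-. Each was lower in LBDXL 3W in every library pair. Col1a1, the main fibrillar collagen, was at 11.3 and 9.06 CPM in LBDXL 3W and at 40.9 and 43.1 CPM in BM 3W Yap-/- and missed the threshold (adjusted p = 0.0798, edgeR), while BM 3W had 2092 and 4165 CPM. Of 19 matrix proteases and inhibitors, 4 were lower: the metalloproteinase inhibitors Timp1, Timp2 and Timp3, and the protease Adamts5. They were 7 without LBDXL 3W 1, 1 when any of the other 3 libraries was left out and 0 in the fit of the 4 libraries alone. Left-out libraries gave 1 to 12 lower matrix genes, the 12 without LBDXL 3W 1. None of 18 stellate cell and fibroblast markers was called in either direction in edgeR's fit (DESeq2 called 2 lower), and their summed level was 711.2 and 352.4 CPM in LBDXL 3W and 495.8 and 441.4 CPM in BM 3W Yap-/-, against 10729 and 14423 CPM in BM 3W.

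**Figure D2:**
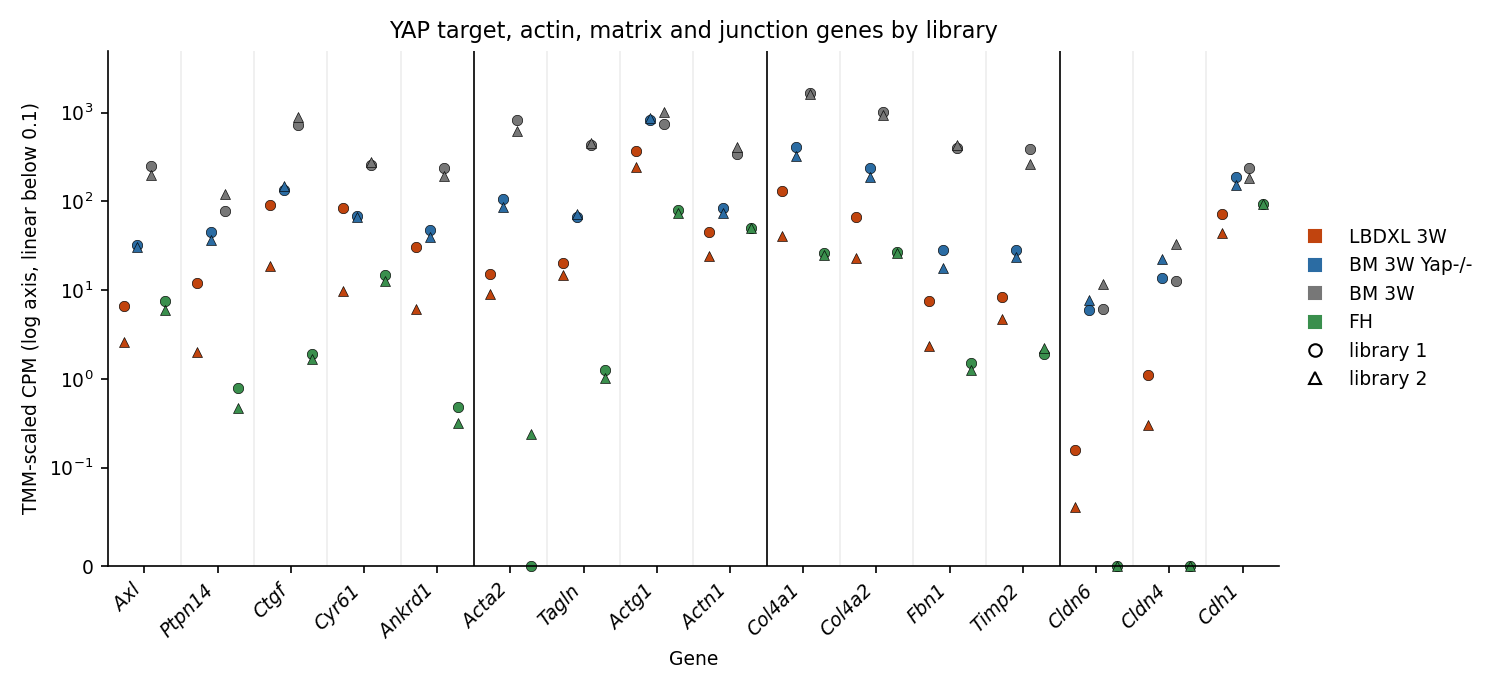
Level of YAP target, actin, matrix and junction genes (separated by vertical lines) in each library, in TMM-scaled CPM on a log axis that is linear below 0.1; colours are groups and symbols are library 1 and 2. Acta2 and Tagln lie lower in both LBDXL 3W libraries than in BM 3W Yap-/-, whereas the LBDXL 3W values of Cyr61 (84.7 and 9.73 CPM) fall on either side of BM 3W Yap-/-.

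Macrophage genes had the highest share of called members of any list. Kupffer cells are the resident macrophages of the liver and accompany hepatocytes through isolation. Of 16 tested Kupffer cell and macrophage markers, 0 were higher, 14 were lower and 2 did not pass, with a median log2 fold change of -5.92 (-5.84 with genes at 0 placed at 3 counts per library). Summed over the list, the level was 12.8 and 6.28 CPM in LBDXL 3W, 403.0 and 462.4 CPM in BM 3W Yap-/-, 3820 and 4488 CPM in BM 3W and 192.1 and 132.7 CPM in FH. FH Yap-/- cells had 250.1 and 277.9 CPM summed. LBDXL 3W thus had the least of these transcripts of the 5 groups, with no overlap. Between 11 and 13 markers stayed lower whichever of the 4 libraries was left out, and 12 in a fit of the 4 libraries alone.

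Csf1r, the receptor that keeps macrophages alive, had 0.529 and 0.483 CPM in LBDXL 3W against 13.2 and 16.1 CPM in BM 3W Yap-/- (log2 fold change -4.84 ± 0.37, adjusted p = 0.000114, edgeR). BM 3W had 239.0 and 173.8 CPM and FH 20.9 and 14.5 CPM. The subunits of complement C1q were lower too. C1qa had 0.264 and 0.121 CPM in LBDXL 3W and 15.02 and 19.3 CPM in BM 3W Yap-/-. C1qb was lower by a log2 fold change of -6.82 ± 0.53 and C1qc by -7.58 ± 0.83. Marco, a scavenger receptor, had 0.317 and 0.0604 CPM in LBDXL 3W, 96.6 and 82.1 CPM in BM 3W Yap-/- and 51.6 and 98.3 CPM in BM 3W. The Marco level of BM 3W Yap-/- did not differ past the threshold from BM 3W (log2 fold change 0.25 ± 0.84), while LBDXL 3W lay below both. Clec4f, which marks Kupffer cells in mouse liver, was at 0 counts in both LBDXL 3W libraries and at 0.729 and 1.21 CPM in BM 3W Yap-/-, at least 5.70-fold lower against a floor of 3 counts per library. In FH it had 27.3 and 17.1 CPM, above all of the cultured groups. Lyz2, lysozyme, had 3.59 and 2.17 CPM in LBDXL 3W and 145.3 and 196.6 CPM in BM 3W Yap-/-. Mrc1 (6.08 and 0.423 CPM in LBDXL 3W, 7.92 and 5.03 CPM in BM 3W Yap-/-) and Timd4, which was at 0 counts in both LBDXL 3W libraries, did not pass. Against BM 3W, 14 of the 16 markers fell in LBDXL 3W, while 13 fell and 1 (Clec4f) rose in BM 3W Yap-/-. Fewer macrophages and less of these transcripts per macrophage cannot be told apart in bulk RNA. Ptprc, the pan-leukocyte marker, was also lower, at 0 and 0.0604 CPM in LBDXL 3W and 2.82 and 2.21 CPM in BM 3W Yap-/-.

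**Figure D3:**
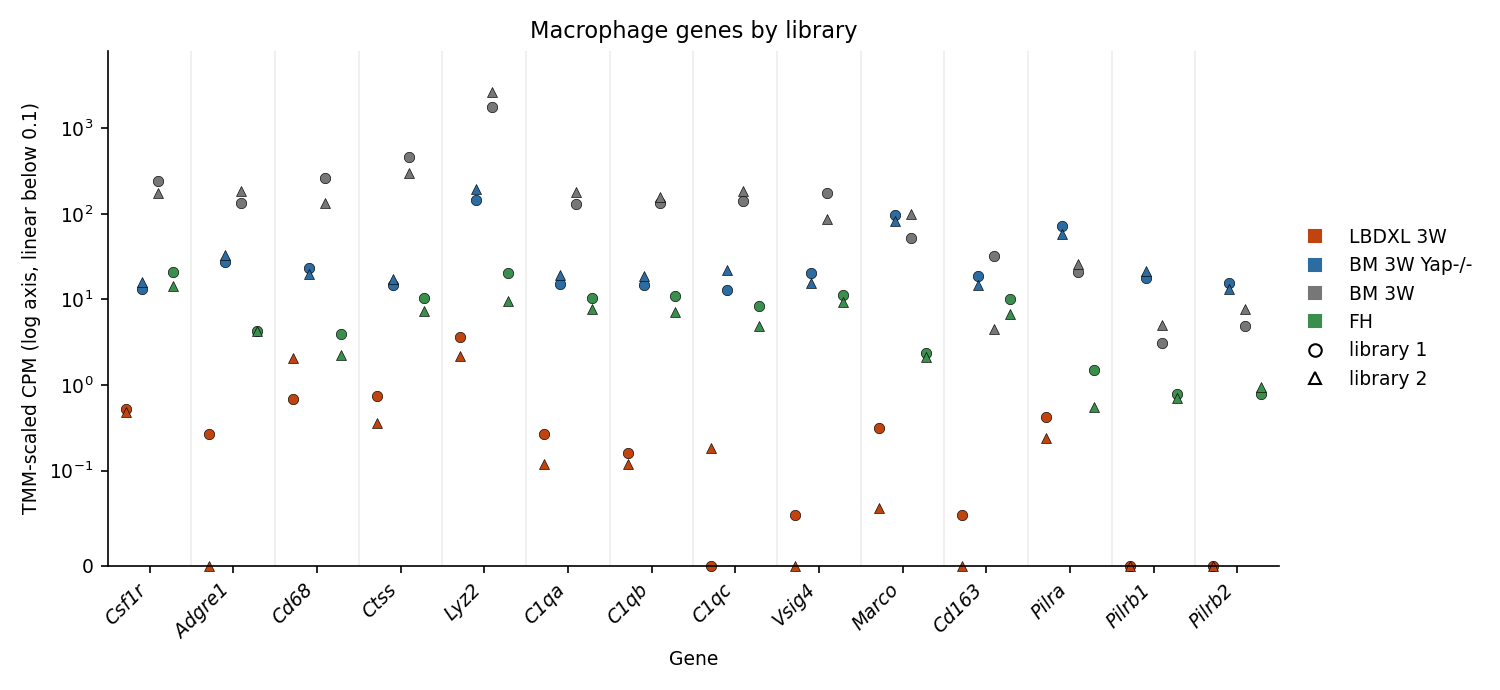
Level of 11 macrophage genes and 3 Pilr genes in each library, in TMM-scaled CPM on a log axis that is linear below 0.1; colours are groups and symbols are library 1 and 2. For each of the 14 genes drawn, both LBDXL 3W points lie below both BM 3W Yap-/- points, for example Csf1r at 0.529 and 0.483 CPM in LBDXL 3W against 13.2 and 16.1 CPM in BM 3W Yap-/-.

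Some genes moved to opposite sides of BM 3W. Pilra (chr5:137821952-137836278), an inhibitory receptor of myeloid cells, had 0.423 and 0.242 CPM in LBDXL 3W and 71.8 and 58.5 CPM in BM 3W Yap-/-, either side of the 20.6 and 25.8 CPM of BM 3W. It fell in LBDXL 3W (log2 fold change -6.08 ± 0.50) and rose in BM 3W Yap-/- (1.49 ± 0.37) against BM 3W. Its neighbour Pilrb1 (chr5:137852141-137858425), an activating receptor of the same family, was at 0 counts in both LBDXL 3W libraries and at 17.7 and 21.2 CPM in BM 3W Yap-/-, at least 115-fold lower. BM 3W had 3.09 and 5.03 CPM. Pilrb2 (chr5:137865821-137871758) was likewise at 0 counts in LBDXL 3W, with 15.4 and 13.1 CPM in BM 3W Yap-/-, at least 83.8-fold lower. Pilrb1 and Pilrb2 are close paralogs, and reads may be split between them. Actn3, the alpha-actinin of fast muscle fibres, had 0 and 0.0604 CPM in LBDXL 3W and 34.8 and 36.8 CPM in BM 3W Yap-/-, with 0.857 and 0.210 CPM in BM 3W and 0 in all 4 fresh libraries. Both Pilr genes and Actn3 were thus higher with Yap loss and lower with LBDXL than in BM 3W. Macrophage transcripts moved with the Pilr genes in the direct comparison. With Yap loss against BM 3W, 13 of 16 macrophage markers fell and 1 rose, while Pilra and Pilrb1 rose. The part of macrophage transcripts in these values was not tested.

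In all, 15 genes (0.106% of those tested) were called on opposite sides of BM 3W, 11 lower and 4 higher with LBDXL. Beside the 3 above, those lower with LBDXL were Cd74, Cd9, Habp2, Ly6d, P2rx4, Rnase4, Tmtc1 and Tspan13. Those higher with LBDXL were Ccl9, Fam46c, Slc17a4 and Zmat1. Cd9, a tetraspanin of the cell surface, had 85.4 and 43.6 CPM in LBDXL 3W and 353.6 and 371.3 CPM in BM 3W Yap-/-, with 110.9 and 126.7 CPM in BM 3W and 7.16 and 6.25 CPM in FH (direct log2 fold change -2.49 ± 0.32, adjusted p = 0.00185, edgeR). Ly6d, a surface protein of the Ly6 family, had 9.20 and 1.33 CPM in LBDXL 3W and 125.6 and 175.1 CPM in BM 3W Yap-/-, with 36.0 and 20.8 CPM in BM 3W. Of these groups, BM 3W Yap-/- held the most Cd9 and Ly6d transcript and FH the least. P2rx4, an ATP-gated ion channel, had 48.1 and 52.4 CPM in LBDXL 3W and 134.4 and 144.9 CPM in BM 3W Yap-/-, with 74.6 and 75.1 CPM in BM 3W. Cd74, the invariant chain of MHC class II, had 0.211 and 0.0604 CPM in LBDXL 3W and 4.66 and 4.48 CPM in BM 3W Yap-/-, with 1.85 and 1.56 CPM in BM 3W and 15.3 and 13.8 CPM in FH. Ccl9 and Slc17a4 went the other way. Ccl9, a chemokine, had 71.9 and 408.0 CPM in LBDXL 3W and 14.04 and 16.2 CPM in BM 3W Yap-/-, with 44.9 and 55.0 CPM in BM 3W. Slc17a4, an organic anion transporter, had 51.3 and 40.2 CPM in LBDXL 3W and 7.82 and 9.91 CPM in BM 3W Yap-/-, with 21.6 and 13.5 CPM in BM 3W and 33.3 and 30.5 CPM in FH. In each of these genes the BM 3W level lay between those of the other cultures. Of the genes called on opposite sides, 6 were lower and 9 higher with LBDXL under total count scaling, and 10 were lower and 7 higher with DESeq2 size factors. The number was 2 without BM 3W 1, 5 without BM 3W 2, 6 without BM 3W Yap-/- 2 and 40 without LBDXL 3W 1.

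A minority of biliary, keratin and junction genes were lower in LBDXL 3W. Of 16 tested cholangiocyte and progenitor markers, 7 were lower and 0 higher (median log2 fold change -2.36, or -2.11 with genes at 0 placed at 3 counts per library). Of the 7, 6 were called lower than BM 3W with LBDXL and not with Yap loss, a class of 1.60% of all genes. Cldn4, a tight junction claudin of duct cells, had 1.11 and 0.302 CPM in LBDXL 3W, 13.6 and 22.5 CPM in BM 3W Yap-/- and 12.7 and 33.4 CPM in BM 3W. Krt7, a duct keratin, had 1.59 and 0.121 CPM in LBDXL 3W and 8.07 and 9.56 CPM in BM 3W Yap-/-. Spp1, osteopontin, had 15.2 and 9.61 CPM in LBDXL 3W and 75.2 and 67.5 CPM in BM 3W Yap-/-, both far under the 4338 and 5038 CPM of BM 3W. Krt19 (1.27 and 0.121 CPM in LBDXL 3W, 3.06 and 2.77 CPM in BM 3W Yap-/-) did not pass. Of 7 keratins 2 were lower and 0 higher, against 4 lower without LBDXL 3W 1 and 0 when any of the other 3 libraries was left out. The biliary markers lower numbered 4 without LBDXL 3W 1, 0 without LBDXL 3W 2, 1 without BM 3W Yap-/- 1 and 0 without BM 3W Yap-/- 2.

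Of 18 tight junction and polarity genes, 4 were lower and 1 higher, with 2 to 4 lower and 0 or 1 higher when 1 library was left out. Cldn6, a claudin of fetal liver and progenitors, had 0.159 and 0.0604 CPM in LBDXL 3W against 6.03 and 7.70 CPM in BM 3W Yap-/- and 6.07 and 11.7 CPM in BM 3W (log2 fold change -5.86 ± 0.85 in the direct comparison, adjusted p = 0.00467, edgeR). It was at 0 counts in FH. Cdh1, E-cadherin, had 71.5 and 44.2 CPM in LBDXL 3W, 186.7 and 151.2 CPM in BM 3W Yap-/-, 234.8 and 181.3 CPM in BM 3W and 93.4 and 92.4 CPM in FH. For both genes Yap loss left the level near that of BM 3W, and LBDXL 3W lay near FH. Cldn12 was the member higher in LBDXL 3W, with 83.4 and 133.1 CPM against 49.2 and 47.5 CPM in BM 3W Yap-/-, a call kept under 6 of 14 alternatives and lost under total count scaling. Afp, the fetal albumin relative, was at 40.9 and 23.8 CPM in LBDXL 3W and 247.4 and 256.8 CPM in BM 3W Yap-/-, just missing the threshold (adjusted p = 0.0517, edgeR).

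Hepatocyte metabolic genes were higher in LBDXL 3W in several pathways, without a shift of hepatocyte markers as a whole. Of 12 hepatocyte markers, 0 were higher and 1 was lower (Hpx, hemopexin), with a median log2 fold change of 0.00. The call of Hpx ended without LBDXL 3W 2 and without either BM 3W Yap-/- library. Alb, albumin, had 186890 and 129830 CPM in LBDXL 3W and 93191 and 78189 CPM in BM 3W Yap-/-, which did not pass (adjusted p = 0.666, edgeR). Hnf4a, the master hepatocyte transcription factor, had 918.7 and 993.0 CPM in LBDXL 3W and 741.6 and 589.5 CPM in BM 3W Yap-/- (adjusted p = 0.343, edgeR). Nr1i3, which encodes the drug-sensing receptor CAR, was called among 24 hepatocyte transcription factors and the other 23 were not. It had 28.8 and 107.5 CPM in LBDXL 3W against 6.22 and 8.95 CPM in BM 3W Yap-/-. The call of Nr1i3 ended without LBDXL 3W 2, without either BM 3W Yap-/- library and in the fit of the 4 libraries alone.

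Arg1 (chr10:24915207-24927470), the urea cycle enzyme arginase, had 2294 and 2777 CPM in LBDXL 3W and 356.6 and 355.5 CPM in BM 3W Yap-/- (log2 fold change 2.83 ± 0.32, adjusted p = 0.000757, edgeR). FH cells had 2097 and 2300 CPM and BM 3W 92.9 and 99.5 CPM, so arginase lay at the fresh level with LBDXL and between BM 3W and FH with Yap loss. Its paralog Arg2, the mitochondrial arginase, went the other way, with 0.951 and 0.0604 CPM in LBDXL 3W and 29.2 and 29.8 CPM in BM 3W Yap-/- (log2 fold change -5.81 ± 0.95). BM 3W had 0.0686 and 0.180 CPM of Arg2 and FH 0.239 and 0 CPM. Over all genes tested, 2.61% were higher and 4.33% lower in LBDXL 3W. Of 34 urea cycle and amino acid genes, 2 were higher, Arg1 among them, and 0 lower, with a median log2 fold change of 1.35. That number was 14 without LBDXL 3W 1 and 1 when any of the other 3 libraries was left out.

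Bile acid genes were higher in LBDXL 3W for 7 of 29 members and lower for 0 (median log2 fold change 0.96). Over all genes tested, 2.61% were higher. Klb, the co-receptor through which hepatocytes sense FGF15, had 9.51 and 15.5 CPM in LBDXL 3W and 0.535 and 0.704 CPM in BM 3W Yap-/- (log2 fold change 4.32 ± 0.64, adjusted p = 0.00427, edgeR), with 2.64 and 0.898 CPM in BM 3W and 63.6 and 60.1 CPM in FH. Slc10a1, the NTCP carrier that takes up bile acids, had 275.7 and 311.1 CPM in LBDXL 3W against 26.3 and 18.0 CPM in BM 3W Yap-/-. Baat, which conjugates bile acids, had 261.1 and 290.3 CPM in LBDXL 3W against 42.4 and 45.3 CPM in BM 3W Yap-/-, and 341.9 and 338.2 CPM in FH. Slc10a1 and Baat were close between the LBDXL 3W libraries. Cyp7a1, the rate-limiting enzyme of bile acid synthesis, was not: it had 13.7 and 134.5 CPM in LBDXL 3W and 0.535 and 0.302 CPM in BM 3W Yap-/-, far under the 1110 and 1147 CPM of FH. Without LBDXL 3W 1, 14 bile acid genes were higher, without LBDXL 3W 2 there were 2, and without either BM 3W Yap-/- library there was 1.

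Cytochrome P450 genes differed widely between the LBDXL 3W libraries. Of 33 P450 and phase I genes, 6 were higher and 0 lower (median log2 fold change 0.89), and the summed level was 23083 and 62221 CPM in LBDXL 3W against 18962 and 18004 CPM in BM 3W Yap-/-. Cyp2c50 had 4.86 and 599.7 CPM in LBDXL 3W and 0.729 and 0.654 CPM in BM 3W Yap-/-, and Cyp2c29 had 1564 and 7798 CPM in LBDXL 3W and 313.5 and 242.9 CPM in BM 3W Yap-/-. Both are drug- and lipid-oxidising enzymes of the Cyp2c family, whose paralogs can share reads. Cyp1a2, the caffeine-oxidising enzyme, had 311.2 and 4367 CPM in LBDXL 3W, either side of the 499.8 and 442.3 CPM of BM 3W Yap-/- (adjusted p = 0.273, edgeR). Its relative Cyp1a1, the classic target of the dioxin receptor, had 158.9 and 1893 CPM in LBDXL 3W and 8.99 and 13.2 CPM in BM 3W Yap-/-, against 0.875 and 0.475 CPM in FH (log2 fold change 6.53 ± 1.60 between LBDXL 3W and BM 3W Yap-/-, adjusted p = 0.0365, edgeR). That call was lost without LBDXL 3W 2 and without either BM 3W Yap-/- library. Cyp3a11 (8728 and 21955 CPM in LBDXL 3W, 6038 and 4784 CPM in BM 3W Yap-/-) and Cyp2b10 (2698 and 4348 CPM in LBDXL 3W, 2388 and 2557 CPM in BM 3W Yap-/-), drug-inducible through PXR and CAR, did not pass and stood far above FH in both conditions. The number of P450 genes higher was 9 without LBDXL 3W 1, 1 without LBDXL 3W 2 and 0 without either BM 3W Yap-/- library.

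The dioxin receptor binds the core GCGTG. The window of 250 bases before the start of Cyp1a1 (chr9:57697363-57697612, plus strand, GRCm38.p6, RefSeq) is shown because this gene was near 0 in FH and BM 3W and high in LBDXL 3W. Capitals mark the core on either strand. Of 7 P450 genes searched (the 6 called list members and Cyp1a1), 6 had a window and 1, Cyp1a1, held the core, against 28.2% of all windows.
Cyp1a1: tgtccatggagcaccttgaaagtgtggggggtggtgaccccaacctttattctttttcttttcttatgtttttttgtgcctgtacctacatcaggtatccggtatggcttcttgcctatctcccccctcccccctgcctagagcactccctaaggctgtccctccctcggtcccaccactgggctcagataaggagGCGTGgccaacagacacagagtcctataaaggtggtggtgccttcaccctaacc

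**Figure D4:**
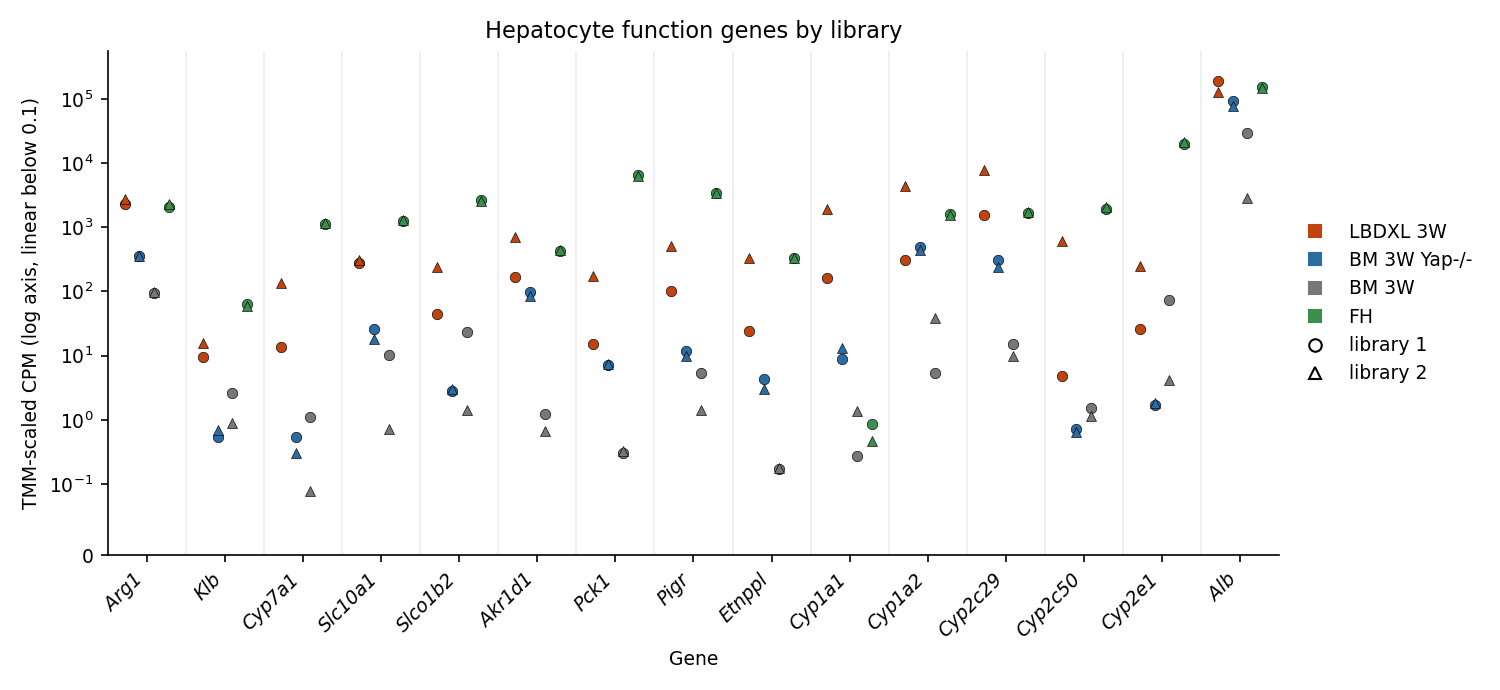
Level of hepatocyte function genes in each library, in TMM-scaled CPM on a log axis that is linear below 0.1; colours are groups and symbols are library 1 and 2. The LBDXL 3W libraries lie close together for Arg1 (2294 and 2777 CPM) and Slc10a1 (275.7 and 311.1 CPM) and far apart for Cyp2c50 (4.86 and 599.7 CPM).

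Of 25 glucose and glycogen genes, 6 were higher and 1 lower in LBDXL 3W (median log2 fold change 1.04). Over all genes tested, 2.61% were higher and 4.33% lower. Ppargc1a, the co-activator of gluconeogenesis, had 14.4 and 23.6 CPM in LBDXL 3W against 4.71 and 2.06 CPM in BM 3W Yap-/-. Fbp1, a gluconeogenic phosphatase, had 440.2 and 330.6 CPM in LBDXL 3W and 46.2 and 67.8 CPM in BM 3W Yap-/-. Hk3, a hexokinase of myeloid cells, was the member lower, with 0 and 0.0604 CPM in LBDXL 3W and 0.972 and 0.754 CPM in BM 3W Yap-/-. Each separated the groups. Left-out libraries gave 0 to 7 genes higher, the 0 without BM 3W Yap-/- 2, and the call of Hk3 ended without either BM 3W Yap-/- library. Of 16 periportal genes, 4 were higher (Arg1, Pigr, Etnppl and Pck1) and 0 lower. Arg1 alone stayed called without either BM 3W Yap-/- library and in the fit of the 4 libraries alone, while 8 were higher and 1 lower without LBDXL 3W 1. Pck1, the first committed enzyme of gluconeogenesis, had 15.01 and 174.8 CPM in LBDXL 3W against 7.05 and 7.44 CPM in BM 3W Yap-/-, with 6426 and 6275 CPM in FH.

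Lipid synthesis genes that passed were all higher in LBDXL 3W. Of 26 fatty acid and triglyceride synthesis genes, 5 were higher (Acaca, Elovl5, Elovl6, Lpin1 and Lpin2) and 0 lower, with a median log2 fold change of 0.91. Acaca, which makes malonyl-CoA, had 578.4 and 495.7 CPM in LBDXL 3W and 285.9 and 191.3 CPM in BM 3W Yap-/-. Lpin1, a phosphatidate phosphatase, had 682.5 and 486.3 CPM in LBDXL 3W and 132.5 and 83.2 CPM in BM 3W Yap-/-. Of 22 cholesterol synthesis genes, 3 were higher (Idi1, Fdft1 and Stard4) and 0 lower, with a median log2 fold change of 1.06. Idi1, an isoprenoid isomerase, had 99.8 and 112.0 CPM in LBDXL 3W and 32.3 and 28.2 CPM in BM 3W Yap-/- (log2 fold change 1.81 ± 0.34, adjusted p = 0.0126, edgeR). BM 3W had 44.8 and 19.1 CPM, so Idi1 did not change with Yap loss past the threshold (log2 fold change -0.08 ± 0.33). Against BM 3W, 19 of 22 cholesterol genes rose in LBDXL 3W and 4 in BM 3W Yap-/-. The counts over all 14100 genes tested were 2980 higher in LBDXL 3W and 2117 higher in BM 3W Yap-/-. All 5 fatty acid calls were lost without LBDXL 3W 2 and without BM 3W Yap-/- 2, and 1 gene was called without BM 3W Yap-/- 1. All 3 cholesterol calls were lost without either BM 3W Yap-/- library, and 1 gene was called without LBDXL 3W 2.

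Among secreted liver proteins, the acute phase genes that passed were lower in LBDXL 3W, while most plasma protein genes did not pass. Of 20 acute phase genes, 4 were lower and 0 higher (median log2 fold change -1.51). Il1rn, the interleukin 1 receptor antagonist, had 4.07 and 3.02 CPM in LBDXL 3W against 25.4 and 22.2 CPM in BM 3W Yap-/- (log2 fold change -2.74 ± 0.32). Orm2, an orosomucoid, had 68.6 and 4.77 CPM in LBDXL 3W and 694.7 and 506.4 CPM in BM 3W Yap-/-. The groups did not overlap for either gene. The LBDXL 3W libraries differed widely in Orm2, and its call ended without LBDXL 3W 2 and without either BM 3W Yap-/- library. Acute phase genes lower numbered 8 without LBDXL 3W 1, 2 without LBDXL 3W 2 and 1 without either BM 3W Yap-/- library. Among all genes tested, 2.61% were called higher and 4.33% lower. Of 24 plasma protein genes, 2 were lower (Hpx and Ambp) and 0 higher, though 16 had a positive log2 fold change (median 0.27). Of 31 complement and coagulation genes, 2 were higher (F13b and F9) and 1 lower (Cfb). All 5 of these calls ended without LBDXL 3W 2, without either BM 3W Yap-/- library and in the fit of the 4 libraries alone. Cfb, complement factor B, had 591.3 and 437.3 CPM in LBDXL 3W and 1308 and 1384 CPM in BM 3W Yap-/-, which was above the 496.3 and 369.4 CPM of BM 3W.

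Inflammatory and stress genes were lower in LBDXL 3W for a minority of members. Of 25 inflammatory cytokine and chemokine genes, 5 were lower and 0 higher (median log2 fold change -1.73), and of 25 interferon response genes 3 were lower and 0 higher (median -1.12). Cxcl16, a chemokine of macrophages and hepatocytes, had 7.98 and 1.27 CPM in LBDXL 3W and 39.2 and 41.7 CPM in BM 3W Yap-/-. Cxcl10, an interferon-induced chemokine, had 0.211 and 0.181 CPM in LBDXL 3W, 7.05 and 7.14 CPM in BM 3W Yap-/- and 4.77 and 3.56 CPM in BM 3W. Macrophage transcripts were lower in the same direction, at 12.8 and 6.28 CPM summed in LBDXL 3W against 403.0 and 462.4 CPM in BM 3W Yap-/-, and their part in these values was not tested. Under total count scaling 9 interferon genes were lower. Left-out libraries gave 0 to 9 inflammatory and 0 to 4 interferon genes lower, with 0 without BM 3W Yap-/- 2 in both lists and 0 interferon genes without LBDXL 3W 2.

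Among 19 NRF2 targets, 2 were lower and 0 higher, with 1 to 3 lower when 1 library was left out, the 1 without BM 3W Yap-/- 2. G6pdx (chrX:74409483-74428880), the entry enzyme of the pentose phosphate pathway, had 7.88 and 8.64 CPM in LBDXL 3W, 85.0 and 68.7 CPM in BM 3W Yap-/-, 43.2 and 58.7 CPM in BM 3W and 3.58 and 2.61 CPM in FH. LBDXL 3W lay nearer to FH than either BM culture did, and the direct log2 fold change was -3.22 ± 0.27 (adjusted p = 0.000143, edgeR). Osgin1, an oxidative stress gene, had 49.7 and 53.1 CPM in LBDXL 3W and 286.8 and 420.4 CPM in BM 3W Yap-/-, against 71.1 and 136.7 CPM in BM 3W. Over all genes tested, 4.33% were lower and 2.61% higher. Of 20 p53 targets and senescence genes, 4 were lower and 1 higher. Without LBDXL 3W 1, 6 were lower, without LBDXL 3W 2 there were 0, and without either BM 3W Yap-/- library there was 1, with 0 higher in each. Cdkn1a, the cell cycle inhibitor p21, was at 245.6 and 103.3 CPM in LBDXL 3W and 171.4 and 164.6 CPM in BM 3W Yap-/- (adjusted p = 0.963, edgeR).

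More genes were changed by LBDXL and not by Yap loss than the reverse. A total of 422 genes (2.99% of those tested) were called in LBDXL 3W against BM 3W, not called in BM 3W Yap-/- against BM 3W, and called in the direct comparison in the same direction. Of these, 196 (1.39%) were higher and 226 (1.60%) lower than BM 3W (91 and 243 under total count scaling). In the underlying comparisons 6323 genes (44.8%) were called with LBDXL and 4459 (31.6%) with Yap loss, both against the same BM 3W libraries. Those BM 3W libraries differed widely from each other, with hepatocyte markers at 47456 and 9046 CPM summed. Within this class, the genes with the largest direct differences that met the naming limits were Cdh5, Cyp2c50, Cyp7a1, Esm1, Cyp2c54 and Cyp1a1 on the higher side. On the lower side they were Pilrb2, Chil3, Cd163, Marco, Kif1a and Crispld2. Kif1a, a neuronal kinesin that carries vesicle precursors, had 0.317 and 0.362 CPM in LBDXL 3W, 32.8 and 21.4 CPM in BM 3W Yap-/- and 14.5 and 21.1 CPM in BM 3W (direct log2 fold change -6.29 ± 0.82). It was at 0 counts in FH. Crispld2, a secreted glycoprotein, had 0.211 and 0.362 CPM in LBDXL 3W, 12.3 and 10.3 CPM in BM 3W Yap-/- and 8.37 and 7.73 CPM in BM 3W. Cd163, the haemoglobin scavenger receptor of macrophages, had 0.0529 and 0 CPM in LBDXL 3W and 18.8 and 14.5 CPM in BM 3W Yap-/-. Kif1a and Crispld2 were thus at or near 0 in fresh cells, clearly present in both BM cultures and low with LBDXL. The class held 711 genes without LBDXL 3W 1, 135 without LBDXL 3W 2, 196 without BM 3W Yap-/- 1 and 88 without BM 3W Yap-/- 2.

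Changed by Yap loss and not by LBDXL were 114 genes (0.809%), of which 64 were higher and 50 lower in BM 3W Yap-/- than in BM 3W. Those lower with Yap loss and not called in LBDXL 3W against BM 3W were led by Adgrf5, Cyp2e1, Angpt2, Cyp2j5, Inmt and Yap1 itself. The high values of Adgrf5 and Angpt2 were those of LBDXL 3W 1 (see the endothelial genes below). Cyp2j5, an arachidonic acid epoxygenase, had 102.5 and 125.8 CPM in LBDXL 3W, 4.13 and 2.31 CPM in BM 3W Yap-/- and 80.2 and 34.9 CPM in BM 3W. Cyp2j5 was thus lower in Yap-/- cultures than in either other culture, and all of these lay below the 1379 and 1308 CPM of FH. Its call was lost without LBDXL 3W 2 and without either BM 3W Yap-/- library. Cyp2e1, the ethanol-oxidising P450, had 25.8 and 248.5 CPM in LBDXL 3W, 1.70 and 1.81 CPM in BM 3W Yap-/- and 74.4 and 4.19 CPM in BM 3W, so that its replicate libraries differed widely in both LBDXL 3W and BM 3W.

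Those higher with Yap loss were led by Arg2, Prr15l, Plet1, Igfbp6, Pde10a and Mfsd4a. Plet1 (chr9:50494525-50505639), a surface protein of epithelial progenitors, had 4.97 and 2.48 CPM in LBDXL 3W, 107.4 and 79.2 CPM in BM 3W Yap-/- and 2.02 and 3.26 CPM in BM 3W (direct log2 fold change -4.64 ± 0.46, adjusted p = 0.000424, edgeR). FH and FH Yap-/- cells had 1.83 to 2.96 CPM, so the gene was high in the cultured Yap-/- libraries alone among these groups. Mfsd4a, a membrane transporter, had 0.951 and 1.03 CPM in LBDXL 3W, 14.8 and 12.98 CPM in BM 3W Yap-/- and 1.10 and 2.46 CPM in BM 3W. Igfbp6, an IGF2-binding protein, had 3.49 and 1.15 CPM in LBDXL 3W, 34.8 and 37.4 CPM in BM 3W Yap-/- and 3.64 and 4.25 CPM in BM 3W. For Plet1, Mfsd4a and Igfbp6, both LBDXL 3W and BM 3W lay far under BM 3W Yap-/-. The class held 126 genes without LBDXL 3W 1, 65 without LBDXL 3W 2, 96 without BM 3W Yap-/- 1, 18 without BM 3W Yap-/- 2, 69 without BM 3W 1 and 93 without BM 3W 2.

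**Figure D5:**
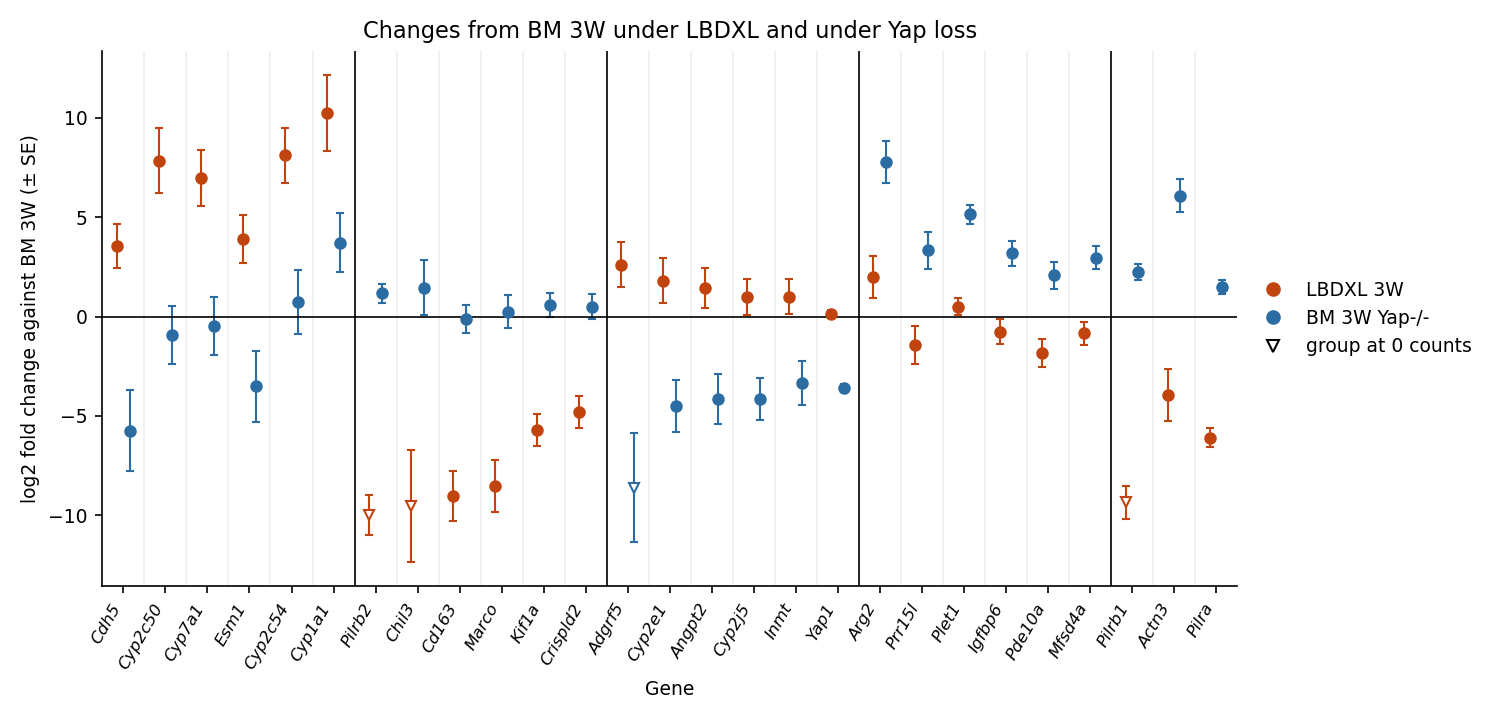
Log2 fold change against BM 3W (± SE) of the named genes in LBDXL 3W (red) and BM 3W Yap-/- (blue). Vertical lines separate, from left to right, genes changed by LBDXL and not by Yap loss (higher, then lower), genes changed by Yap loss and not by LBDXL (lower, then higher with Yap loss) and the 3 genes named by rule that changed in opposite directions; open triangles mark a group at 0 counts, whose fitted value depends on the prior count. Plet1 lies at 0.49 ± 0.42 in LBDXL 3W and at 5.14 ± 0.47 in BM 3W Yap-/-.

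Several genes at the top of both classes are endothelial, and their high values were those of LBDXL 3W 1. Of 16 tested sinusoidal endothelial markers, 4 were higher in LBDXL 3W (Cdh5, Pecam1, Lyve1 and Kdr) and 0 lower, with a median log2 fold change of 4.38 (3.06 with genes at 0 placed at 3 counts per library). Cdh5, the cadherin of endothelial junctions, had 38.0 and 0.725 CPM in LBDXL 3W and 0.0486 and 0 CPM in BM 3W Yap-/-. Pecam1, an adhesion protein of the same cells, had 31.0 and 0.785 CPM in LBDXL 3W and 0.0972 and 0.402 CPM in BM 3W Yap-/-. Adgrf5, an adhesion receptor of vessels, had 28.9 and 0.725 CPM in LBDXL 3W and 0 counts in both BM 3W Yap-/- libraries. The LBDXL 3W mean was at least 99.9-fold higher against the floor, a limit set by LBDXL 3W 1 and not met by LBDXL 3W 2. Esm1 and Angpt2, secreted by endothelial cells, had the same pattern. The summed level of the marker list was 293.5 and 28.0 CPM in LBDXL 3W, against 136.1 and 135.4 CPM in BM 3W Yap-/-, 348.4 and 391.4 CPM in BM 3W and 182.7 and 146.5 CPM in FH, so LBDXL 3W 1 was above and LBDXL 3W 2 below the Yap-/- cultures. Without LBDXL 3W 1, 1 marker was higher and 3 were lower. Without LBDXL 3W 2, 8 were higher and 0 lower, and without either BM 3W Yap-/- library 0 were called.

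For other lists no member was called in the direct comparison: integrins and focal adhesion (20 tested), fatty acid oxidation and ketogenesis (24), proliferation (27), glucocorticoid-responsive genes (17), the Notch pathway (14) and endoplasmic reticulum stress (21). Their median log2 fold changes ran from -0.70 for proliferation to 0.73 for glucocorticoid-responsive genes. DESeq2 called 3 integrin genes lower, 1 fatty acid oxidation gene higher, 4 glucocorticoid-responsive genes higher, 1 Notch gene each way, 2 endoplasmic reticulum stress genes each way and 0 proliferation genes. At an unadjusted p under 0.05 in edgeR, 0 integrin genes were higher and 6 lower, 4 fatty acid oxidation genes higher and 1 lower, 1 proliferation gene each way and 5 glucocorticoid-responsive genes higher and 0 lower. The same count was 1 higher and 2 lower for Notch, 3 each way for endoplasmic reticulum stress and 1 higher and 3 lower for the stellate cell list. Against BM 3W, 22 of 27 proliferation genes fell in LBDXL 3W and 14 in BM 3W Yap-/-. Among all 14100 genes tested, 3343 fell in LBDXL 3W and 2342 in BM 3W Yap-/-. In the same comparisons, 15 of 17 glucocorticoid-responsive genes rose in LBDXL 3W and 11 in BM 3W Yap-/-. Among all 14100 genes, 2980 rose in LBDXL 3W and 2117 in BM 3W Yap-/-.

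The difference between LBDXL 3W and BM 3W Yap-/- was also set against the difference between fresh cells without and with the Yap mutation (FH minus FH Yap-/-). Of 14100 genes, 195 (1.38%) differed beyond it, 73 on the higher and 122 on the lower side. Yap1 itself was among them, at 1.85 on the log2 scale, and had 23.1 and 26.5 CPM in FH Yap-/-. Of the macrophage markers 9 of 16 were on the lower side, where 0.865% of all genes were, and their summed level in fresh cells was 250.1 and 277.9 CPM in FH Yap-/- and 192.1 and 132.7 CPM in FH. Of cholesterol synthesis genes 6 of 22, and of fatty acid and triglyceride synthesis genes 7 of 26, were on the higher side, where 0.518% of all genes were. Summed levels of the cholesterol genes were 10951 and 11080 CPM in FH Yap-/- and 4675 and 4791 CPM in FH, and those of the fatty acid and triglyceride genes 22599 and 22118 CPM in FH Yap-/- and 15242 and 15286 CPM in FH. This fresh difference runs against the one in culture, and the median over the cholesterol genes was 2.26 beyond it and 1.06 in the direct comparison (log2). Because FH expressed Y-linked genes and FH Yap-/- did not, the genotype of the fresh cells and this difference cannot be told apart. The count was 575 without LBDXL 3W 1 and 55 to 76 when 1 of the 4 fresh libraries was left out.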

How the data were processed

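RNA was measured by RNA-seq (RNeasy extraction, TruSeq Stranded mRNA kit, per the labels' protocols) in 14 libraries of 7 groups, 2 libraries each. The submitters' processing notes name Trimmomatic, HISAT2, Cufflinks, HTSeq and DESeq, with no versions or strand setting, and the build GRCm38.p6. The deposited tables hold raw read counts and FPKM values per gene, made by the authors, for 21878 genes, of which 4326 were at 0 in all libraries. In 27 rows, symbols that a spreadsheet had turned into dates were restored from the gene identifiers.

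The counts were tested with edgeR 4.0.16 (R 4.3.3): TMM scaling, filterByExpr on the groups, 1 mean per group over all 14 libraries, the quasi-likelihood F-test and Benjamini-Hochberg adjustment over 14100 genes, with calls at an adjusted p under 0.05. Changed in opposite directions means called against BM 3W with opposite signs and called directly. Standard errors are the log2 fold change divided by the square root of F. The procedure was tested on simulated data. DESeq2 1.42.0, and limma 3.58.1 on the log2 of the deposited FPKM plus 1 or 0.1, served as alternatives with other scalings, filters, left-out libraries and a replicate block. Fold limits against groups at 0 counts use a floor of 3 counts per library and cover counting error only. Genes with near-identical copies (Cyp2c, Cyp4a, Pilrb, Sult and Ugt families) are uncertain because reads can be split between copies.

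The members and the 44 gene lists were chosen with earlier results of these data known. Genes were named by rule: a panel of 20, the 10 largest changes each way at 10 CPM or more without overlap, 6 per class each way and the 4 smallest p-values per list. Baat, Clec4f, Fbp1, Lpin2, Lyz2, Mrc1, Pfn1, Slc10a1, Timd4 and 12 of the 15 genes changed in opposite directions fall outside that rule and were named after their values were seen. Promoter windows are the 250 bases before each RefSeq gene start.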

Additional observations from a re-analysis of the deposited data

Results flagged for a closer look

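The 15 genes called on opposite sides of BM 3W are listed here by their direct log2 fold change, LBDXL 3W over BM 3W Yap-/-. Lower in LBDXL 3W and higher in BM 3W Yap-/- than in BM 3W were 11, with -11.59 for Pilrb1, -10.01 for Actn3 and -7.57 for Pilra. The surface proteins among them were Cd74 at -4.97, Ly6d at -4.82, Tspan13 at -4.08, Cd9 at -2.49 and P2rx4 at -1.47. The others were Tmtc1 at -4.65, Rnase4, a secreted ribonuclease, at -3.43 and Habp2, a plasma protease, at -1.71. Higher in LBDXL 3W and lower in BM 3W Yap-/- were Fam46c at 5.57, Ccl9 at 3.99, Slc17a4 at 2.37 and Zmat1 at 2.36. Pilrb1 was at 0 counts in LBDXL 3W, so its fitted value depends on the prior count.

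Only genes of the panel and of the largest changes each way were searched here, not the other genes named by rule. In 9 genes of that set the difference between LBDXL 3W and BM 3W Yap-/- went beyond that between FH and FH Yap-/-. It was tested as an interaction in edgeR. On the log2 scale, Yap1 stood at 1.85 and Cyp4a14, a fatty acid hydroxylase, at 10.08 on the higher side. The direct log2 fold change of Cyp4a14 was 7.182 without LBDXL 3W 1 and 1.405 without LBDXL 3W 2. Its direct call was lost when only the groups compared were fitted. On the lower side were the myeloid receptors Pilrb1 at -11.47, Pilrb2 at -11.10 and Pilra at -6.99. The macrophage genes Vsig4 at -8.30, Cd163 at -8.09, Adgre1 at -6.51 and C1qc at -6.84 were also lower. The fresh groups differed in Y-linked transcripts as well as in Yap genotype, which cannot be told apart here.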

How the results depend on the processing

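The direct count of 978 genes was 1887 by DESeq2's Wald test, and 169 when only the groups compared were fitted. DESeq2 gave 699 genes beyond the fresh difference (195 in the reported fit), 725 changed by LBDXL and not Yap loss (422) and 236 changed by Yap loss and not LBDXL (114). With only the groups compared, LBDXL 3W against BM 3W had 3997 calls (6323), the test beyond the fresh difference 400, and the classes 137 and 30. limma gave 353 genes beyond the fresh difference with a pseudocount of 1, 311 with 0.1 and 420 without a filter, and 7098 calls for BM 3W Yap-/- against BM 3W without a filter (4459). Without a low count filter edgeR gave 291 genes beyond the fresh difference. With LBDXL set against BM 3W 1 and Yap loss against BM 3W 2, the Yap loss class held 67 genes. The 15 genes changed in opposite directions became 34 by DESeq2, 25 by limma with a pseudocount of 1, 33 without its filter and 6 with the same division of the BM 3W libraries, alternatives chosen after seeing the data. Leaving out 1 library gave 209 to 1823 direct calls, 3993 to 6290 for LBDXL 3W against BM 3W, 1938 to 3218 for BM 3W Yap-/- against BM 3W, 55 to 575 beyond the fresh difference, 88 to 711 and 18 to 126 in the LBDXL and Yap loss classes, and 2 to 40 in opposite directions. Why the counts differ was not tested. Total count scaling moved the median by -0.82 for LBDXL 3W and -0.64 for BM 3W Yap-/- against BM 3W, with 1135 genes higher and 6650 lower, and 798 higher and 5053 lower. In the reported fit these were 2980 higher and 3343 lower, and 2117 higher and 2342 lower. With the replicate block the direct count was 1058, that for LBDXL 3W against BM 3W 6624, for BM 3W Yap-/- against BM 3W 4969, beyond the fresh difference 199, the classes 436 and 135, and that in opposite directions 20. Under the block 5 of the 124 direct calls named by rule ended, those of Hpx, Spp1, Inmt, Lgals1 and Csf3r. The labels do not say that equal numbers mark a shared animal or day. Deviations of same-numbered libraries correlated across genes at 0.23 between LBDXL 3W and BM 3W Yap-/-, 0.31 between BM 3W Yap-/- and BM 3W, and 0.05 between LBDXL 3W and BM 3W. With 2 libraries a group, genes at few counts and groups whose libraries differ widely are the least certain.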
